A study of Homo sapiens with 4 samples.

Results

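CPNE8, PDPN and LINGO2 are 3 genes, of 25559 gene symbols counted, that gave few reads in wildtype HGC-27 cells and many in RUNX3 KO cells. They were taken by symbol, and had been chosen by their counts in the same 4 libraries, low in wildtype and high in RUNX3 KO. Their levels and fold changes are therefore given below as a description, without a test. HGC-27 is an established line of human gastric cancer cells, and its polyA RNA was sequenced in 2 wildtype libraries and 2 RUNX3 KO libraries, the KO cells having been made with a lentiviral vector that carries Cas9 and a guide to RUNX3. RUNX3 is a transcription factor of the Runt domain family. The KO cells went through puromycin selection and single-cell cloning, and the number of clones is not given in the sources used here, so that loss of RUNX3 and a property of a clone cannot be told apart. Nothing states that replicates were separate cultures, so p-values measure only the spread between these samples, which may be technical.

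The 3 genes encode proteins of the cell surface or its inner face, from unrelated families. CPNE8 belongs to the copines, soluble proteins that bind phospholipid membranes when calcium rises, through a pair of C2 domains followed by a domain like that of von Willebrand factor A. PDPN encodes podoplanin, a mucin-type transmembrane glycoprotein best known from lymphatic endothelium, kidney podocytes and the invading edge of some carcinomas. Podoplanin binds the platelet receptor encoded by CLEC1B on its outer side, and on its inner side the ezrin, radixin and moesin proteins that tie the membrane to actin. LINGO2 encodes a membrane protein with leucine-rich repeats and an immunoglobulin domain, found mainly in the nervous system. Its relative LINGO1 is a co-receptor in the Nogo receptor complex, which restrains the outgrowth of axons.

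Between 11731401 and 12110876 reads fell on genes in each library. RUNX3 itself had 351 and 308 counts in wildtype and 225 and 185 in RUNX3 KO, so RUNX3 RNA was reduced and not absent. Its log2 fold change was -0.70 (SE of 0.0973 and adjusted p of 1.43e-09 by the quasi-likelihood test of edgeR, Benjamini-Hochberg adjusted), and it was -0.55 without RUNX3 KO replicate 2, where the adjusted p was 0.0649. The RNA level alone does not give the protein level, which was not measured in these libraries. The study reports an immunoblot in which the KO cells lacked RUNX3 protein. Of 13 gastric and epithelial markers, 6 had no read in any library, among them CLDN18, TFF1 and KRT19, and EPCAM had 1 read in each wildtype library and none in RUNX3 KO. The 3 markers of this list that were tested, MUC1, KRT8 and CDH1, had wildtype means of 7.92, 1.27 and 1.53 CPM (counts scaled to library size). Of 8 fibroblast and mural cell genes, THY1, ACTA2, DCN and LUM had means of 84.2 CPM or more in either group, while PDGFRA, PDGFRB, FAP and RGS5 had wildtype means of 27.6, 7.50, 3.35 and 0.72 CPM.

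Parts of the RefSeq promoters of the 3 genes are shown because RUNX proteins recognise the motif TGTGGT or TGCGGT. The first is present in the promoter windows of 2 of the 3 genes. The sequences are from RefSeq promoters (250 bases before to 50 after the start, assembly GRCh38.p14), each with 1 exact match in GRCh37, the build of the deposited tables. All run 5′ to 3′ on the strand of the gene, with the motif TGTGGT in capitals.
CPNE8: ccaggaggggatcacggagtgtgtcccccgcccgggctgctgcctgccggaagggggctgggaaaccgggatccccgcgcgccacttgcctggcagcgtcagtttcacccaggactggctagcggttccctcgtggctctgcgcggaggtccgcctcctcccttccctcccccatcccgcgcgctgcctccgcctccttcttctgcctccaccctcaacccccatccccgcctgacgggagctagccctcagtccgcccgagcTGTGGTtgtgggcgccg
PDPN: ccgtttgttgcaTGTGGTccctttccctcc
LINGO2: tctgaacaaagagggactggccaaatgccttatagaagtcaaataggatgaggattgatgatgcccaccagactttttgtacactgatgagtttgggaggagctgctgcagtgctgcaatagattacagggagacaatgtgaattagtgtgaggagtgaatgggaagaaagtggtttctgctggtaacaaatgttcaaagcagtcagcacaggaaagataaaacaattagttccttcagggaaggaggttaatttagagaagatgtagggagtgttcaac

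The CPNE8 sequence, 280 bases at chr12:39299364-39299643 on the minus strand, ends in the 5′ UTR of transcript CPNE8-201, whose annotated start is the RefSeq start. Its TGTGGT begins 13 bases past that start. The PDPN sequence, 30 bases at chr1:13910070-13910099 on the plus strand, is part of a longer promoter and lies in the first exon, 5′ UTR, of transcript PDPN-201. Its TGTGGT begins 170 bases before the first of 3 RefSeq starts of PDPN, and the promoter of the second start overlaps it and holds the same copy, whereas that of the third holds neither motif. The LINGO2 sequence, 280 bases at chr9:28719274-28719553 on the minus strand, lies within the span of LINGO2 and in no annotated exon, 49020 bases upstream of the nearest annotated start, that of LINGO2-201. It holds neither motif on either strand. With both strands searched, 13.1% of 35116 RefSeq promoters hold TGTGGT, 7.29% hold TGCGGT and 19.6% hold at least one, so a copy is common. The promoters differed in composition too, with 25 CpG dinucleotides for CPNE8, 19 for the first PDPN start and 1 for LINGO2, against a median of 14. Only 3.96% of promoters have fewer than LINGO2. No binding of RUNX3 was measured in these libraries, and the letters are a description of the window alone.

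CPNE8 (ENSG00000139117.14) spans 260609 bases at chr12:39040624-39301232 on the minus strand, with 9 annotated transcripts. The wildtype libraries held 11 and 9 counts of it, and RUNX3 KO held 177 and 203. Both KO libraries lay far above both wildtype libraries, as the choice of the gene by these counts required. Within each group the pair differed by no more than counting error allows. In CPM, counts scaled to a common library size with TMM normalization, its level was 0.847 ± 0.12 in wildtype and 15.9 ± 1.34 in RUNX3 KO (SD, n = 2 per group). The log2 fold change was 4.22 (SE 0.333). The summed counts, 20 against 380, gave an 18.8-fold higher level, with an exact 95% counting interval of 12 to 31.2. Each KO library set against each wildtype library gave between 16.1-fold and 22.1-fold, the narrowest spread of the 3 genes.

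PDPN (ENSG00000162493.17) spans 34493 bases at chr1:13909960-13944452 on the plus strand, with 11 annotated transcripts. It had 15 and 4 counts in wildtype and 157 and 152 in RUNX3 KO. The KO libraries were nearly equal and far above both wildtype libraries, but the wildtype libraries stood apart from each other. Their ratio was 3.75, with a 95% counting interval of 1.19 to 15.5, which does not include equality. The level was 0.805 ± 0.659 CPM in wildtype and 13.0 ± 0.466 CPM in RUNX3 KO (SD, n = 2 in each group), and the log2 fold change was 3.99 (SE 0.353). From the summed counts, 19 and 309, the level was 16.1-fold higher (95% counting interval 10.1 to 27.1). The size of this fold rested on which wildtype library was used, since it was 37.2-fold without wildtype replicate 1 and 10.1-fold without wildtype replicate 2.

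LINGO2 (ENSG00000174482.11) is by far the longest of the 3, spanning 1275985 bases at chr9:27937615-29213599 on the minus strand, with 9 annotated transcripts. It had 5 and 9 counts in wildtype and 103 and 114 in RUNX3 KO. As for the other genes, the groups did not overlap, which the choice of the 3 genes by these counts required. Here the pair of each group differed by no more than counting error allows. Its level was 0.593 ± 0.24 CPM in wildtype and 9.10 ± 0.534 CPM in RUNX3 KO (SD, n = 2 in each group), with a log2 fold change of 3.92 (SE 0.4). The summed counts of 14 and 217 gave a 15.4-fold higher level, with a 95% counting interval of 8.96 to 28.6, the widest of the 3 genes relative to its size. Leaving out wildtype replicate 1 gave 11.8-fold and leaving out wildtype replicate 2 gave 21.0-fold. Intervals here and above cover counting error only.

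**Figure D1:**
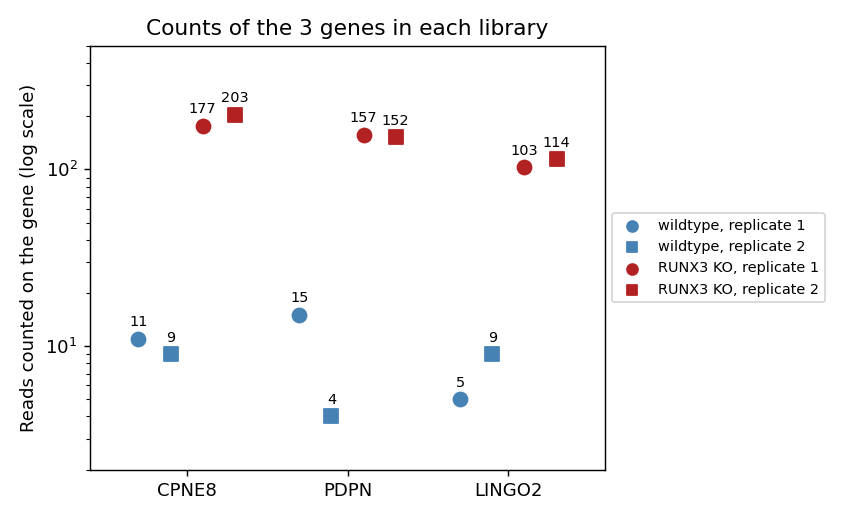
Reads counted on CPNE8, PDPN and LINGO2 in each of the 4 libraries, on a log axis, with wildtype in blue and RUNX3 KO in red. No wildtype library exceeds 15 counts and no RUNX3 KO library falls below 103, and only PDPN shows a wide gap (15 and 4) between wildtype replicates.

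The fold changes of the 3 genes could not be ranked against each other. On the log2 scale, CPNE8 exceeded PDPN by 0.23 (95% interval -0.73 to 1.18) and LINGO2 by 0.30 (-0.72 to 1.32), and PDPN exceeded LINGO2 by 0.08 (-0.97 to 1.12). These intervals all include 0, and they leave room for a sizeable difference in either direction. The counts of the wildtype libraries limit them, as each of those libraries held between 4 and 15 reads of a gene.

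**Figure D2:**
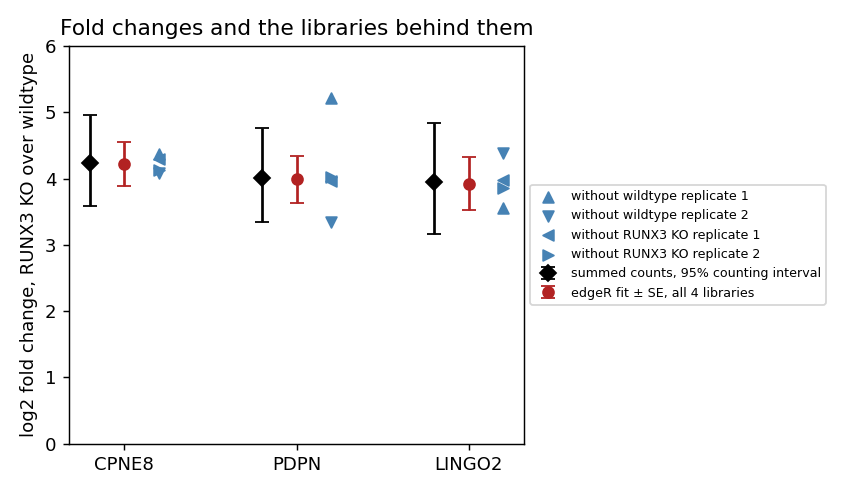
Log2 fold change of RUNX3 KO over wildtype for each gene, from summed counts with the 95% counting interval (black), from the fit to all 4 libraries with its SE (red) and with each library left out (blue). CPNE8 stays between 4.08 and 4.37 when a library is left out, LINGO2 between 3.56 and 4.39, and PDPN between 3.34 and 5.22.

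Among tested genes, the 3 combine a low wildtype level with a level below the median in RUNX3 KO. The filter removed genes that were low in every library, so the shares below leave those genes out. Only 1.53% of the 12967 tested genes had a lower wildtype level than CPNE8, 1.31% than PDPN and 0.702% than LINGO2. In RUNX3 KO, 35.3% of tested genes lay below CPNE8, 31.7% below PDPN and 26.4% below LINGO2. None of the 3 reached the median tested gene, 30.6 CPM in RUNX3 KO. All 3 passed the filter on low values through their RUNX3 KO libraries and so had to differ. They were among 274 genes, 2.11% of those tested, that were higher in RUNX3 KO by at least 2-fold with an adjusted p under 0.05, a number that was 182 without RUNX3 KO replicate 2. Their place among these follows from how they were picked.

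By log2 fold change CPNE8 ranked 13, PDPN 16 and LINGO2 17 of all tested genes. Of the 17 genes down to LINGO2, 11 had at most 3 counts in both wildtype libraries, such as SLITRK2, where a fold change has no firm base. The other 6 were CPNE8, PDPN, LINGO2, FRZB, LDOC1 and PCDH15. FRZB, a secreted WNT antagonist, had 3 and 16 counts in wildtype and 168 and 208 in RUNX3 KO, and so lay just outside the limits of at most 15 wildtype and at least 103 KO counts that the 3 genes span. LDOC1, with 4 and 4 counts against 73 and 81, and PCDH15, with 4 and 3 against 57 and 71, were also low in wildtype and less abundant in RUNX3 KO. These 3 genes outside the picked set were named after their values were seen. No other gene of the 25559 met both limits, while the mirror image, high in wildtype and low in RUNX3 KO by the same counts, was met by 15 genes.

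The genes nearest to each in level over the 4 libraries were found by Euclidean distance in log2 CPM, across all tested genes. For CPNE8 these were PDPN (distance 1.06), UPK3B (1.33) and LINGO2 (1.44), and for PDPN they were CPNE8 (1.06), UPK3B (1.64) and LINGO2 (1.71). UPK3B, which encodes a uroplakin of the urothelial and mesothelial surface, had 19 and 15 counts in wildtype and 110 and 127 in RUNX3 KO. LINGO2 lay closer to genes outside the trio, namely HSD17B2 (0.547), FAM110B (0.801) and LOC643401 (0.905). HSD17B2, a steroid dehydrogenase that inactivates estradiol and testosterone, had 5 and 7 counts in wildtype and 79 and 94 in RUNX3 KO. FAM110B had 3 and 10 against 72 and 88, and LOC643401 had 6 and 5 against 77 and 84. All of these were low in both wildtype libraries and many times higher in both KO libraries. With 4 libraries in 2 groups, the distance mostly reflects the 2 group levels.

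**Figure D3:**
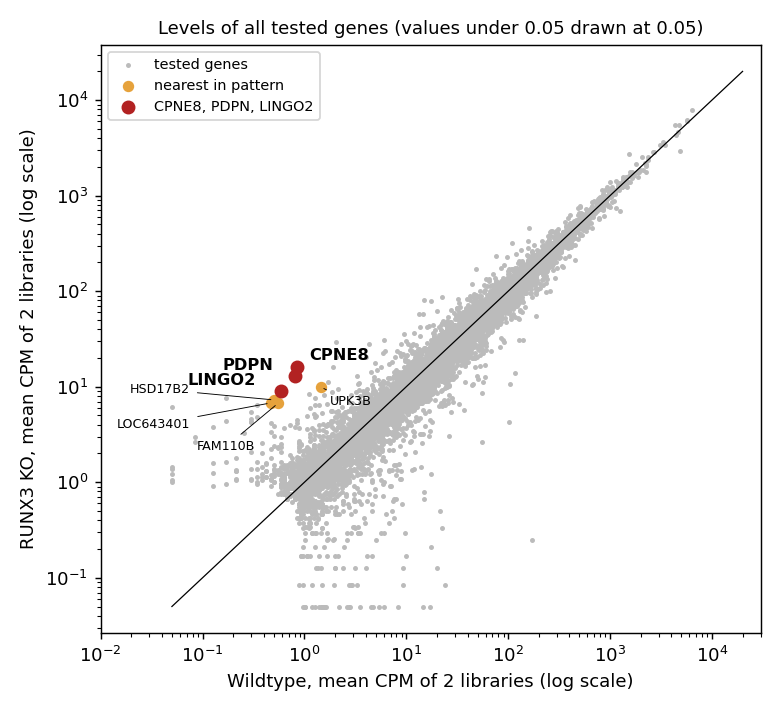
Mean CPM in wildtype against mean CPM in RUNX3 KO for the 12967 tested genes, on log axes, with the line of equal levels. CPNE8, PDPN and LINGO2 (red) lie above the line at 0.593 to 0.847 CPM in wildtype and 9.10 to 15.9 CPM in RUNX3 KO, next to the 4 other genes nearest in pattern (orange).

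Levels of different genes were compared per kilobase, with the summed length of all annotated exons. In RUNX3 KO cells PDPN stood at 3.50 ± 0.126 CPM per kb and CPNE8 at 3.11 ± 0.261, while LINGO2 stood at 0.588 ± 0.0345 (SD, n = 2). LINGO2 was clearly the lowest in both KO libraries. The order of PDPN and CPNE8 depended on the length used. With the MANE Select transcripts PDPN-211 and CPNE8-201 they were at 4.74 ± 0.17 and 4.65 ± 0.389 CPM per kb and their libraries overlapped, and with the longest transcript of each gene CPNE8, at 4.65 ± 0.389, lay above PDPN, at 4.18 ± 0.15, with no overlap. In wildtype cells CPNE8 was at 0.165, PDPN at 0.217 and LINGO2 at 0.0383 CPM per kb, and the libraries of CPNE8 and PDPN overlapped.

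The other copines were followed to see whether CPNE8 moved with its family. None of the tested ones passed as higher in RUNX3 KO. Of 8 other copines listed, 4 were tested, 2 were lower and 2 did not pass, with a median log2 fold change of -0.11, where the median of all tested genes was -0.0021. Among all tested genes 24.5% were higher and 24.4% were lower at an adjusted p under 0.05. So few copines cannot be set apart from these shares. CPNE1, the most abundant copine here, fell from 142 ± 5.07 to 102 ± 4.96 CPM (SD, n = 2; log2 fold change -0.47, SE of 0.0435 and adjusted p of 1.28e-16 by the quasi-likelihood test of edgeR, Benjamini-Hochberg adjusted). CPNE2 had a log2 fold change of -0.26 (SE of 0.0698 and adjusted p of 0.000958 by the same edgeR test), a call that was lost without wildtype replicate 1 or without either RUNX3 KO library, with adjusted p-values up to 0.211. It was also lost with DESeq2 (adjusted p = 0.0727) and with no filter on low counts (0.0712). CPNE3, at 0.04, and CPNE5, at 0.15, did not pass. CPNE4 and CPNE7 had no read in any library, and CPNE6 and CPNE9 had at most 3.

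Per kilobase of exon, CPNE8 lay beside CPNE5 in wildtype and between CPNE2 and CPNE5 in RUNX3 KO. In wildtype the order was CPNE1 (39.2 CPM per kb), CPNE3 (11.3), CPNE2 (6.03), CPNE5 (0.183) and CPNE8 (0.165). The libraries of CPNE5 and CPNE8 overlapped on this length, so this last step in the order was within their spread. With the MANE Select transcripts CPNE2 (17.9 CPM per kb) lay above CPNE3 (15.6) in wildtype with no overlap, so the order of these genes depended on the length used. In RUNX3 KO the order was CPNE1 (28.4), CPNE3 (11.6), CPNE2 (5.02), CPNE8 (3.11) and CPNE5 (0.203), with no overlap between neighbours.

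LINGO2's relatives were counted in the same way. Of 11 genes of the LINGO family and the Nogo receptor system, 7 were tested, 2 were higher, 3 were lower and 2 did not pass, with a median log2 fold change of -0.05. So few genes cannot be set apart from the 24.5% higher and 24.4% lower among all tested genes. TNFRSF19, which can stand in for the neurotrophin receptor in the Nogo receptor complex, had 64 and 70 counts in wildtype and 176 and 210 in RUNX3 KO. Both KO libraries were above both wildtype libraries, and the log2 fold change was 1.51 (SE of 0.148 and adjusted p of 1.60e-16 by the quasi-likelihood test of edgeR, Benjamini-Hochberg adjusted). NGFR, the neurotrophin receptor of that complex, had 45 and 48 counts in wildtype and 14 and 15 in RUNX3 KO, a log2 fold change of -1.69 (SE of 0.31 and adjusted p of 2.56e-07 by the same edgeR test). RTN4R, the Nogo receptor itself, had 194 and 204 counts against 94 and 83, a log2 fold change of -1.18 (SE of 0.133 and adjusted p of 2.36e-13 by the same edgeR test).

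LINGO1 was higher in RUNX3 KO by 0.28 on the log2 scale (SE of 0.0684 and adjusted p of 0.000266 by the quasi-likelihood test of edgeR, Benjamini-Hochberg adjusted), and RTN4RL2, a Nogo receptor homologue, was lower at -0.83 (SE of 0.222 and adjusted p of 0.000744). Both lost their calls without either RUNX3 KO library, with adjusted p-values up to 0.0814 for LINGO1 and 0.0971 for RTN4RL2, and RTN4RL2 also lost its call with DESeq2 (adjusted p = 0.0699). RTN4, which encodes Nogo, was at 0.04 and RTN4RL1 at -0.05, and neither passed. LINGO3 and the Nogo receptor ligands MAG and OMG had no read in any library, and LINGO4 had 1 read in 1 RUNX3 KO library. Per kilobase of exon LINGO1 remained far above LINGO2, at 9.08 ± 0.33 against 0.588 ± 0.0345 CPM per kb in RUNX3 KO (SD, n = 2).

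A further list held other membrane proteins with leucine-rich repeats, most of them known from neurons. Of 32 listed, 18 were tested, 3 were higher, 9 were lower and 6 did not pass, with a median log2 fold change of -0.24, beside 24.5% higher and 24.4% lower among all tested genes. The 5 with the largest changes that passed were LRRN2, SLITRK2, LRRTM1, FLRT1 and SLITRK6. LRRN2 had 26 and 40 counts in wildtype and 0 in both KO libraries, at least 11.1-fold lower against a floor of 3 counts per library. LRRTM1, an organiser of synapses, had 12 and 11 counts in wildtype and 0 in both KO libraries, at least 3.87-fold lower. SLITRK2 had no read in wildtype and 11 and 13 in RUNX3 KO, at least 3.96-fold higher. FLRT1 was lower at -1.06 and SLITRK6 higher at 1.04 on the log2 scale. Over this list and those of the copines, the LINGO system and podoplanin, 29 genes were called, and 16 were called when either RUNX3 KO library was left out.

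For podoplanin the lists held the proteins that it binds or acts through. CD44, the hyaluronan receptor with which podoplanin associates, went the other way from PDPN. It had 1266 and 1221 counts in wildtype and 129 and 125 in RUNX3 KO, and its log2 fold change was -3.30 (SE of 0.0978 and adjusted p of 9.96e-58 by the quasi-likelihood test of edgeR, Benjamini-Hochberg adjusted). In the KO libraries its counts were thus below those of PDPN, at 10.7 ± 0.376 CPM against 13.0 ± 0.466 CPM, values that are not scaled to length. MMP14, a membrane-bound matrix metalloproteinase, had 1592 and 1478 counts in wildtype and 746 and 760 in RUNX3 KO (log2 fold change -1.04, SE of 0.0501 and adjusted p of 1.64e-34 by the same edgeR test).

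The proteins that link podoplanin to actin had small log2 fold changes, between -0.40 and 0.16. MSN (moesin) was lower, at -0.40 on the log2 scale (SE of 0.0345 and adjusted p of 1.03e-18 by the quasi-likelihood test of edgeR, Benjamini-Hochberg adjusted). EZR (ezrin) was higher at 0.16 (SE of 0.0396 and adjusted p of 0.000169) and RDX (radixin) at 0.13 (SE of 0.0304 and adjusted p of 0.000137) by the same edgeR test. EZR lost its call without either RUNX3 KO library, with an adjusted p of up to 0.0655, and RDX without RUNX3 KO replicate 2, at 0.0571. The actin-severing protein CFL1 was lower at -0.09, a call lost without either RUNX3 KO library, with adjusted p-values up to 0.0843. In all, of 15 partners and effectors 13 were tested, 2 were higher, 5 were lower and 6 did not pass, among them RHOA (0.04) and the tetraspanin CD9 (0.19). The median was -0.01, and among all tested genes 24.5% were higher and 24.4% lower. CLEC1B, the platelet receptor, and CCL21, a chemokine that podoplanin binds, had no read in any library.

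Of 7 genes known to regulate PDPN in lymphatic endothelium, skin or tumours, 5 were tested, 1 was higher, 2 were lower and 2 did not pass, with a median of -0.18. So few genes cannot be set apart from the shares over all tested genes, 24.5% higher and 24.4% lower. TGFB1 was lower at -0.50 (SE of 0.0572 and adjusted p of 6.13e-13) and STAT3 at -0.42 (SE of 0.0607 and adjusted p of 3.60e-09) by the quasi-likelihood test of edgeR, Benjamini-Hochberg adjusted. JUN was higher at 0.29 (SE of 0.102 and adjusted p of 0.012 by the same edgeR test), a call lost without wildtype replicate 2 or without either RUNX3 KO library, with adjusted p-values up to 0.383, with DESeq2 (0.203) and with no filter on low counts (0.137). SOX18 (0.12) and FOS (-0.18) did not pass. PROX1, the lymphatic endothelial regulator, had 2 and 5 counts in wildtype and 2 and 2 in RUNX3 KO.

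**Figure D4:**
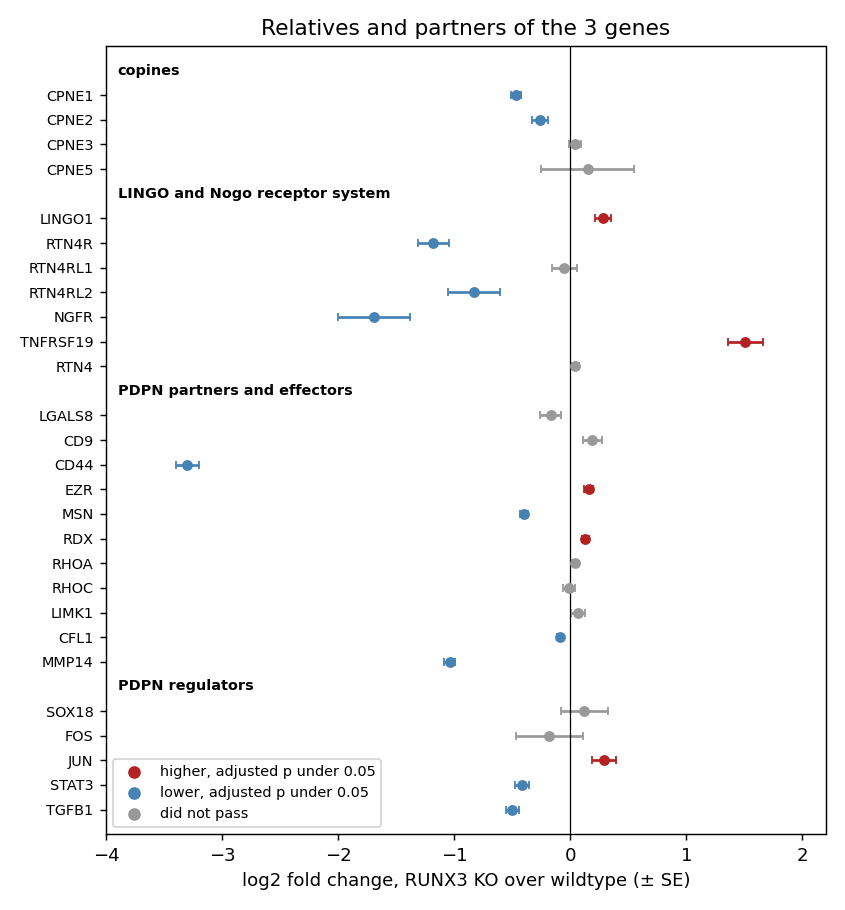
Log2 fold change with its SE for the tested copines, LINGO and Nogo receptor genes, podoplanin regulators and the podoplanin partners reported here. Red marks genes that were higher and blue genes that were lower at an adjusted p under 0.05, and grey those that did not pass. CD44 at -3.30 lies farthest from 0 and TNFRSF19 at 1.51 is the highest.

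PDPN and LINGO2 are best known from lymphatic endothelium and neurons, so other markers of those cells were counted. In bulk RNA, fewer cells of a type and less RNA per cell cannot be told apart. Of 12 endothelial markers, lymphatic ones included, none was tested, 7 had no read in any library, among them LYVE1, PECAM1 and CDH5, and 10 had at most 3 reads in every library. Their summed level was 0.678 and 0.763 CPM in wildtype and 0.763 and 0.582 CPM in RUNX3 KO, whereas PDPN alone stood at 13.3 and 12.6 CPM in RUNX3 KO. Of 12 neuron markers 4 were tested, 1 was higher, 2 were lower and 1 did not pass, too few to set beside the 24.5% higher and 24.4% lower among all tested genes. Their summed level was 12.9 and 11.4 CPM in wildtype and 10.3 and 9.15 CPM in RUNX3 KO, with both KO libraries below both wildtype libraries, and STMN2, NEFM and ELAVL4 had no read in any library. SNAP25, a synaptic fusion protein, was higher at 0.73 (adjusted p = 0.0459), and SYT1 (-0.56) and NEFL (-1.84) were lower, by the quasi-likelihood test of edgeR, Benjamini-Hochberg adjusted. The call of SNAP25 was lost without wildtype replicate 2 or either RUNX3 KO library (adjusted p up to 0.722), and that of SYT1 without wildtype replicate 1 or either RUNX3 KO library (up to 0.0961). Both were lost with DESeq2, at 0.352 and 0.177, and that of SNAP25 also with the other scalings and with no filter, at 0.0518 to 0.25.

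Other marker lists were counted too, and among all tested genes 24.5% were higher and 24.4% were lower. Of 8 fibroblast and mural cell markers, all were tested, 1 was higher, 6 were lower and 1 did not pass, and their summed level was 657 and 654 CPM in wildtype and 455 and 447 CPM in RUNX3 KO. PDGFRA, at -2.33, fell most, and RGS5 was the one that rose, at 1.41, a call lost without wildtype replicate 1 or either RUNX3 KO library (adjusted p up to 0.178). Of the 3 tested gastric and epithelial markers, 2 were higher, KRT8 by 2.33 and CDH1 by 0.77 on the log2 scale. The call of CDH1 was lost without wildtype replicate 1 or either RUNX3 KO library (adjusted p up to 0.238). The summed level of the epithelial list was 10.7 and 11.4 CPM in wildtype and 16.2 and 17.6 CPM in RUNX3 KO. With DESeq2 the calls of RGS5 (adjusted p = 0.0944) and CDH1 (0.273) were lost as well, and with no filter on low counts those of RGS5 (0.0523) and CDH1 (0.0642). The part of these values in the levels of CPNE8, PDPN and LINGO2 was not tested.

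The neighbours of each gene on its chromosome had smaller log2 fold changes than the gene itself. Within 1 Mb of the start of CPNE8, 2 genes were tested. KIF21A, a kinesin, had 1932 and 1994 counts in wildtype and 2757 and 2792 in RUNX3 KO, and its log2 fold change was 0.49 (SE of 0.0364 and adjusted p of 2.39e-22 by the quasi-likelihood test of edgeR, Benjamini-Hochberg adjusted). ALG10B was at 0.02 and did not pass. Within 1 Mb of PDPN, the tested genes PRDM2 (-0.03) and KAZN (0.10) did not pass, and within 1 Mb of LINGO2 no gene was tested. Over the 10 tested genes next to it in either direction, the median log2 fold change was 0.11 for CPNE8, 0.11 for PDPN and 0.33 for LINGO2, and the highest values were 0.60, 0.58 and 2.07, for PKP2, FHAD1 and DMRTA1. The call of PKP2 was lost without wildtype replicate 2 or either RUNX3 KO library (adjusted p up to 0.257), with DESeq2 (0.0998) and with no filter (0.0698), and FHAD1 did not pass.

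Of these 20 tested genes around each gene, 7 were higher and 0 lower for CPNE8, 4 were higher and 1 lower for PDPN, and 11 were higher and 3 lower for LINGO2, which lies on the short arm of chromosome 9. With 20 in either direction, 9 were higher and 7 lower for CPNE8, 9 and 2 for PDPN, and 25 and 4 for LINGO2. Their medians were 0.02, 0.08 and 0.28. The largest change among the 20 around LINGO2 went down, in MOB3B, which starts 1.68 Mb from LINGO2 and had a log2 fold change of -2.37 (adjusted p = 1.27e-15, edgeR). Of the 127 other tested genes on that arm, 72 were higher and 10 were lower, with a median of 0.26, and 15 were higher by at least 2-fold. Among all tested genes 24.5% were higher, 24.4% were lower and 2.11% were higher by at least 2-fold. The largest log2 fold change among those on the arm was 2.31. The part of the arm's shift in the level of LINGO2 was not tested.

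**Figure D5:**
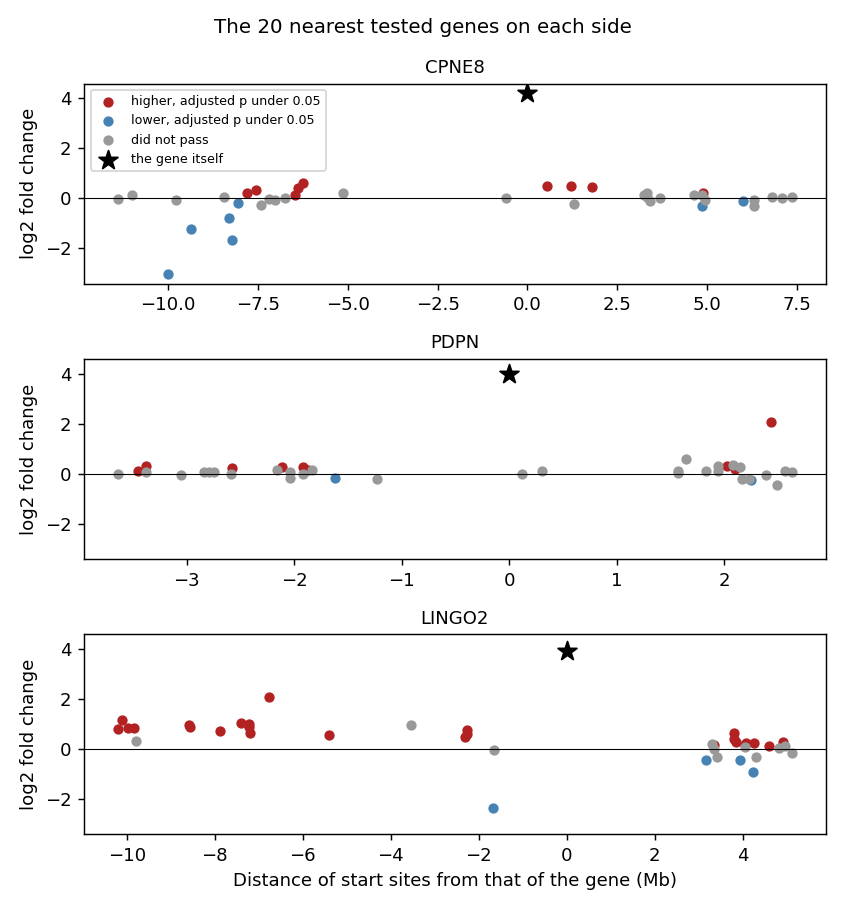
Log2 fold change of the tested genes next to CPNE8, PDPN and LINGO2, 20 in either direction, against the distance between start sites in Mb, with the gene itself as a star. Each star lies above every neighbour, and most neighbours of LINGO2 lie above 0, with a median of 0.28.

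Reads of overlapping genes could enter these counts. CPNE8-AS1, an antisense RNA at the start of CPNE8 (chr12:39300253-39303394, plus strand), overlaps it and has no count of its own here. The library kit in the labels keeps strand, and whether the counting used it is not given in the sources used here, so reads of CPNE8 and its antisense RNA may not have been told apart. LINGO2 is overlapped by 4 features that have no count of their own here, whose reads may likewise have entered its counts. On its strand are the lncRNA ENSG00000260412 at its 3′ end (chr9:27937615-27944495) and the pseudogene KCTD10P1, and on the other strand are the lncRNA ENSG00000287551 and the pseudogene ENSG00000229060. MIR873 and MIR876 also lie inside LINGO2 on its strand and had no read in any library. No annotated gene of another symbol overlapped PDPN.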

How the data were processed

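HGC-27 polyA RNA was sequenced from 2 wildtype and 2 RUNX3 KO libraries. The authors deposited raw read counts per gene symbol, not normalized. Per the labels, tools were bcl2fastq, HISAT2 2.1.0 and HTSeq with hg19, whereas the study's methods name STAR and featureCounts. Medium and RNA extraction also differ between these sources, and the study's methods name no kit for the RNA libraries. Each table has 25559 symbols, and 5 further rows for reads on no gene (25.9% to 28.1% of all) were left out.

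Depth was 11731401 to 12110876 reads on genes per library, so low counts limit the precision of fold changes, and a floor of 3 counts was used. Analysis used edgeR 4.0.16 in R 4.3.3, with filterByExpr (minimum count 10, minimum total 15), TMM scaling and the quasi-likelihood test, adjusted by Benjamini-Hochberg over 12967 genes and a threshold of 0.05. Replicates differed by little more than sampling noise (chi-square per degree of freedom 1.22 and 1.18), and all 4 libraries were kept. The common dispersion was 0.000211, and the small p-values rest on this narrow spread. An exact permutation of 2 against 2 libraries cannot go below p = 0.333 and was not used. Standard errors are Wald errors at the fitted means, not below counting error. Counting intervals are exact and conditional on the summed counts (scipy 1.17.1). Steps were tested on simulated data.

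The 3 genes and the gene lists were chosen with earlier results of these data known. Named genes were the 3 genes, list genes that passed the test (for other leucine-rich repeat proteins the 5 largest), tested genes within 1 Mb and the 3 nearest in log2 CPM (prior count 2); any other gene was named with its values in view. Positions came from GENCODE on GRCh37, where 19607 symbols matched directly and 2159 through a synonym. Protein sequences were not analysed here, and some genes of the lists are not reported here. Alternatives were other scalings, other filters, DESeq2 1.42.0, other prior counts and transcript lengths, a replicate block, and each library left out. The main fit did not treat the replicate numbers as pairs, and whether they pair the samples is not known.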

Additional observations from a re-analysis of the deposited data

How the results depend on the processing

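The log2 fold changes of the 3 genes kept their direction under every alternative reported for them, which their choice by these same counts made near certain. Their values from the DESeq2 test are not reported here. With other scalings (DESeq2's size factors among them), no filter, a prior count of 2 or the replicate block they were 3.99 to 4.22 for CPNE8, 3.75 to 4.0 for PDPN and 3.61 to 3.92 for LINGO2. With each library left out in turn, where the lone library is assumed to vary like the other group, they were 4.08 to 4.37, 3.34 to 5.22 and 3.56 to 4.39. A minimum of 10 counts in every library removed all 3, and called 160 genes higher and 298 lower by at least 2-fold, against 274 and 512. DESeq2 called 1829 genes higher and 1863 lower at any fold, against 3183 and 3158, and 207 and 398 at 2-fold. Leaving out a library gave 182 to 289 genes higher and 373 to 504 lower at 2-fold, 1285 to 2745 higher and 1378 to 2806 lower at any fold, and 16 to 27 calls in the lists, against 29.

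The block for replicate number gave 4.22, 3.99 and 3.92 for CPNE8, PDPN and LINGO2, 3143 genes higher and 3143 lower at any fold, and 29 calls in the lists. Deviations of same-numbered libraries from their group means correlated at 0.0257 over 12967 genes. Since replicates differed by little more than sampling noise, this value cannot decide whether same-numbered libraries were paired. Of 80 other genes named or listed, 55 were called, and 35 of these kept their call under every alternative that gave a value. The length by MANE Select transcript was chosen after seeing the data. Wildtype counts of 4 to 15 set the precision of the fold changes, and the spread between clones was not measured.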
